A study of Homo sapiens with 2 samples.

Results

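The 78 nuclear genes of the mitochondrial ribosomal proteins were followed in RNA from extracellular vesicles, small membrane-enclosed particles shed by cells. They were chosen by name alone, as protein-coding genes whose symbol is MRPL or MRPS followed by a number and at most 1 letter. Both deposited tables held a row for 30 of them, out of 14467 genes with a row, and 48 had no row in either. The vesicles came from LAD2, an established human mast cell line. Stem cell factor was added to their SP34 medium, the labels name no further agent, and vesicles were harvested on completion of 4 days in culture. The labels name total RNA, an RNeasy kit and an NEB library kit. The 2 libraries, replicates 1 and 2, form 1 group, and the series is titled for messenger RNA that mast cells hand to colorectal cancer cells in vesicles. Whether replicates 1 and 2 stem from different cultures is not labelled, and their spread may be a technical one. LAD2 is 1 cell line, and no RNA of the cells themselves or of other vesicles was analysed here.

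Mitochondria make the proteins of their own small genome on a ribosome of their own. Its RNA comes from the mitochondrial genome, while all of its proteins are encoded in the nucleus, made in the cytosol and imported. The small subunit, whose proteins carry the prefix MRPS, reads the messenger RNA. The large subunit, with the prefix MRPL, joins the amino acids. Some of these proteins descend from bacterial ribosomal proteins and others are found in mitochondrial ribosomes and have no bacterial counterpart. The products of this ribosome are membrane subunits of the respiratory chain and of ATP synthase.

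Both tables give log2 values, and "linear value" below means 2 raised to that value. A gene with a linear value of at least 10 in both libraries, a log2 value of 3.32, is called detected. Levels of different genes are set against each other after division by the exonic length in kilobases (kb), and a sentence that uses the deposited scale for this, which does not correct for length, says so. No source used here gives the authors' counting strand, and which strand's RNA a value measures is uncertain for every gene named. Depth is not given either, and no counting interval can be stated. Fewer vesicles that carry an RNA and less of that RNA in each vesicle cannot be told apart in such a bulk measurement. The mast cell label was checked against 16 marker genes, of which 12 had a row (75%, against 42.3% of protein-coding genes). Of the 16, 3 were detected, a share near the 18.4% of protein-coding genes. On the deposited scale the transcription factor gene GATA2 led the 16 markers at 8.89 and 9.16 log2 units, and the tryptase gene TPSB2 had 3.01 and 3.02. KIT had 2.20 and 2.18 and CPA3 had -0.23 and -0.24, both below the detection limit. FCER1A, FCER1G, SIGLEC8 and MITF had no row. Of 27 markers of other blood and tissue cells, 11 had a row (40.7%) and 4 were detected. The haemoglobin gene HBA2 led them on the deposited scale at 8.63 and 9.34. Per kb, GATA2 had a mean of 6.87 log2 units and HBA2 9.26. Without correction for length, the summed linear value of the mast cell markers was 578.2 in replicate 1 and 672.5 in replicate 2. That of the other markers was 492.3 and 744.2. GATA2 made up most of the former sum and HBA2 most of the latter, in both libraries. The part of such other cells in the values below was not tested.

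A few promoters are printed here, since the 2 highest genes, MRPS22 and MRPS25, and a pair of low genes with a high neighbour on the other strand, MRPL18 and MRPS34, carry the contrasts described below. Each window runs from 250 bases before to 50 after the RefSeq start on GRCh38.p14 and is written in the direction of the gene. The windows are chr3:139343744-139344043 on the plus strand for MRPS22, chr3:15065266-15065565 on the minus strand for MRPS25, chr6:159789562-159789861 on the plus strand for MRPL18, and chr16:1773085-1773384 on the minus strand for MRPS34. Capitals mark matches to an ETS-type motif, CCGGAAG or its reverse complement CTTCCGG.
MRPS22: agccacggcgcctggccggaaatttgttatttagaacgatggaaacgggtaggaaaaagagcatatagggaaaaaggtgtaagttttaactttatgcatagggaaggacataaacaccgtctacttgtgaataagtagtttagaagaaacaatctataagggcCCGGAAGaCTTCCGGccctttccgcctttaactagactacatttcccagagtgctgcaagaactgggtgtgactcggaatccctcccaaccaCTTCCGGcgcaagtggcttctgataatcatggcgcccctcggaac
MRPS25: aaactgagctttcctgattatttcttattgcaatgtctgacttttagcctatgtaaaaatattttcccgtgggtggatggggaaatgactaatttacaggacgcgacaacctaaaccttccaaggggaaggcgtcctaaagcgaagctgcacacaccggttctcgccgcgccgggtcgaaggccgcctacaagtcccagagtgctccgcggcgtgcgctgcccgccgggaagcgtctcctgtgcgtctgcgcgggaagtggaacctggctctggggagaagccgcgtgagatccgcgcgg
MRPL18: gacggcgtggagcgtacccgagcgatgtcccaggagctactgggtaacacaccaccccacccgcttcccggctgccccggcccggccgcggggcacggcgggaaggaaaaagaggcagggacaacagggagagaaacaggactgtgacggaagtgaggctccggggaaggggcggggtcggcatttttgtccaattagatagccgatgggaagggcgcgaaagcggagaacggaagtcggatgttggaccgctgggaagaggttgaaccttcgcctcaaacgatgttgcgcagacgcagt
MRPS34: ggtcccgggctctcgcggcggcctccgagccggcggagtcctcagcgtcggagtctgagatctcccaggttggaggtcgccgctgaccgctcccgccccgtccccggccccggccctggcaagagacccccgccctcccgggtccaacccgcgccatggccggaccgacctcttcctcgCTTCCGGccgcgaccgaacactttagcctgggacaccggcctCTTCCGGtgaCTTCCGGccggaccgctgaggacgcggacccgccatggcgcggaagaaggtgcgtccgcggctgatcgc

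The MRPS22 and MRPS34 windows each held 3 matches to the ETS-type motif, and the MRPS25 and MRPL18 windows held none. ETS factors such as GABPA, with YY1 and NRF1, are known regulators of nuclear genes for mitochondrial proteins. RefSeq windows matched 69 of the 78 genes. Searched on both strands, CCGGAAG was present in 29 of the 69 windows (42%), against 14.2% of 15843 protein-coding promoters of the same length. The YY1-type motif AAGATGGC was present in 20 of 69 (29%), against 3.91%. The perfect palindrome of the NRF1 motif was present in 1 of 69 (1.45%), against 1.75%. CCGGAAG and AAGATGGC can share the letters AAG. They occurred together in 8 of the 69 windows, with shared bases in 0 of them. A match describes the letters only. By row, the NRF1 palindrome was in 0 of 29 windows of genes with a row and in 1 of 40 without. CCGGAAG was in 14 of 29 windows of genes with a row (48.3%) and in 15 of 40 without (37.5%). AAGATGGC was in 8 of 29 (27.6%) and in 12 of 40 (30%).

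Of the 78 genes, 30 had a row (38.5%), against 42.3% of all 19951 protein-coding genes, and 12 were detected (15.4%), against 18.4%. Both shares lie near or below those of protein-coding genes. Mitochondrial ribosomal protein genes are short, with a median exonic length of 2539 bases against 4215 for protein-coding genes. Between exonic lengths of 1697.5 and 3563.25 bases, the middle 50% of these genes, 13 of 38 had a row (34.2%), against 34.4% of the 5414 protein-coding genes of those lengths. The median level of the 30 genes was 2.71 log2 units in replicate 1 and 2.69 in replicate 2, against a median of 2.99 over both libraries for the 8431 protein-coding genes with a row. Per kb of exonic length the order turned, with a median of 1.02 in replicate 1 and 0.98 in replicate 2 for these genes, against 0.69 and 0.67. Among genes of the same middle range of exonic length it did not turn, with medians per kb of 1.01 for these genes and 1.53 for protein-coding genes. Together they held 0.354% ± 0.00637 of the summed linear value (SD, n = 2), and MRPS22 and MRPS25 alone made up 82.9% ± 1.92 of that amount.

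**Figure D1:**
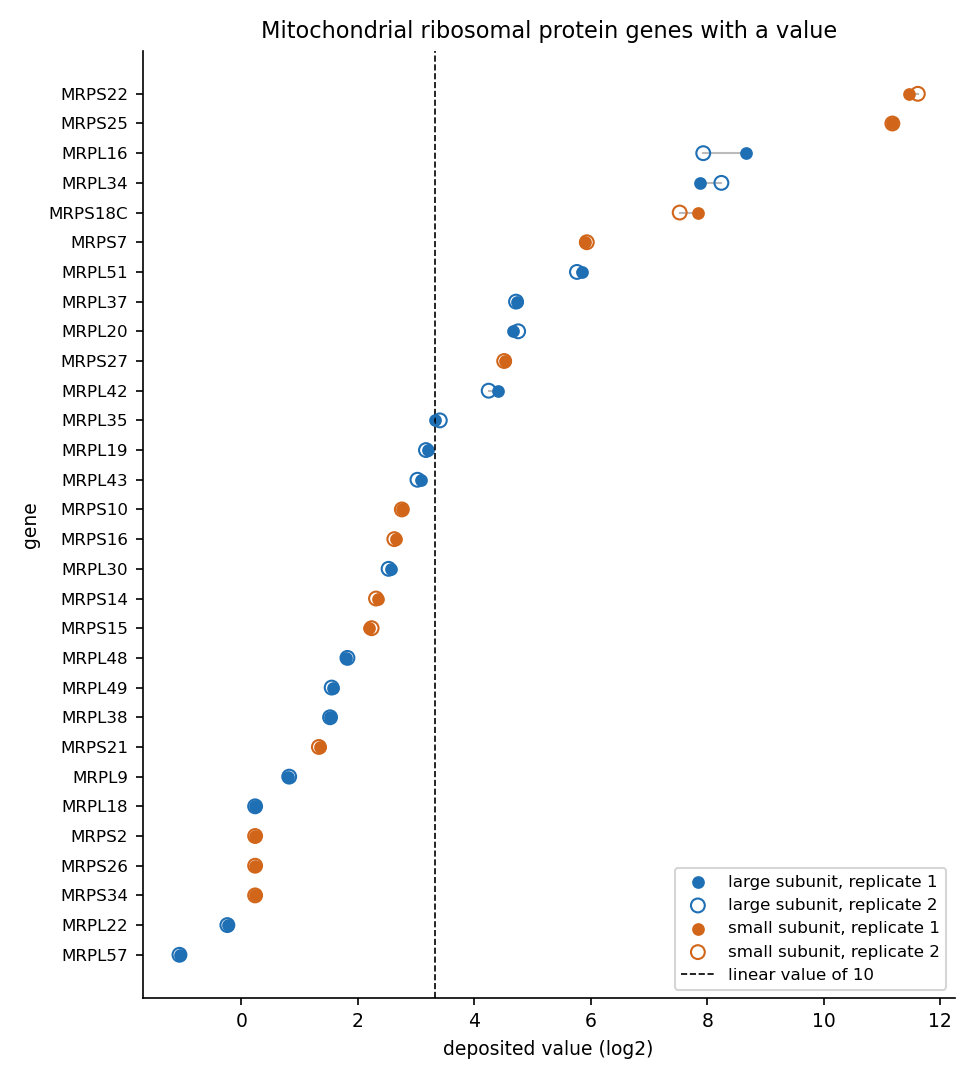
Deposited log2 value of each of the 30 mitochondrial ribosomal protein genes with a row (horizontal axis) in replicate 1 (filled) and replicate 2 (open), with large-subunit genes in blue, small-subunit genes in orange and a dashed line at a linear value of 10. MRPS22 and MRPS25 stand above 11 log2 units in both libraries, and 18 genes lie left of the line.

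The 2 genes highest on both scales belonged to the small subunit and have no bacterial counterpart. MRPS22 (ENSG00000175110, chromosome 3, 139005806 to 139357223, plus strand) had 11.47 log2 units in replicate 1 and 11.62 in replicate 2. MRPS25 (ENSG00000131368, chromosome 3, 15042460 to 15065335, minus strand) had 11.16 and 11.18. On the deposited scale MRPS22 ranked 18 among protein-coding genes with a row and MRPS25 ranked 30. Per kb they ranked 34 and 47, with 9.04 and 9.19 log2 units per kb for MRPS22 and 8.74 and 8.75 for MRPS25. The gap was 0.30 in replicate 1 and 0.44 in replicate 2, a mean of 0.37, against an SD of 0.292 for such a gap. That SD was derived from the differences between the libraries over protein-coding genes of the same levels, and a gap under 2 SD is called unresolved below. The order of MRPS22 and MRPS25 is therefore unresolved. The annotated span of MRPS22 is long because it includes a transcript that begins far before the RefSeq start used for the window above.

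On the deposited scale 3 genes came next. MRPL16, whose bacterial counterpart lies near the catalytic centre of the large subunit, had 8.67 log2 units in replicate 1 and 7.93 in replicate 2. MRPL34, also a large-subunit protein of bacterial descent, had 7.87 and 8.24. MRPS18C, of the S18 family that bacteria hold as a single protein, had 7.83 and 7.53. Per kb, MRPL34 (7.12 and 7.49) and MRPL16 (7.48 and 6.75) changed places between the libraries, and their order is unresolved. Both lay below MRPS25, by a mean of 1.44 for MRPL34. MRPS18C lay below both at 5.55 and 5.24 per kb. Of its relatives MRPS18A and MRPS18B, neither had a row.

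On the deposited scale the other 7 detected genes reached from 3.37 to 5.92 log2 units. MRPS7, a protein of the head of the small subunit, had 5.90 log2 units in replicate 1 and 5.93 in replicate 2, and MRPL51, specific to the mitochondrial ribosome, had 5.85 and 5.76. The large-subunit genes MRPL37 and MRPL20 had 4.73 and 4.72, and 4.67 and 4.75. MRPS27, a small-subunit protein with pentatricopeptide repeats, had 4.52 and 4.51. MRPL42 had 4.41 and 4.25, and MRPL35 had 3.32 and 3.41. After division by length the order within these 7 changed. MRPL51 stood highest at 5.17 log2 units per kb, a mean of 0.22 below MRPS18C with an SD of 0.122 for the gap, so that their order is unresolved, and MRPL42, whose annotated exons add up to 16393 bases, stood lowest at 0.29. MRPS7 followed MRPL51 at 4.18, and MRPL37 and MRPL20, at 3.37 and 3.23, were unresolved with a gap of 0.14 and an SD of 0.086. MRPS27 followed at 1.81 and MRPL35 at 1.43, and the other neighbours in this order differed by more than 2 SD. Library differences narrow at low levels, and how much counting noise this SD covers is not known. A gap above 2 SD is therefore not shown to be resolved at these levels. MRPL42 and MRPL35 each carried a pair of values shared with other genes, 11 and 26 in all. So did MRPL20, MRPL37 and MRPS27, with 4, 2 and 2 in all.

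The 18 genes with a row below the detection limit lay between -1.06 and 3.19 log2 units. MRPL57 had the lowest value that the tables hold, -1.06 in both libraries, shared by 188 genes. MRPL22, whose bacterial counterpart lines the exit tunnel for the nascent chain, followed on the deposited scale at -0.23 and -0.24, a pair shared by 753 genes. MRPL18, MRPS2, MRPS26 and MRPS34 carried the same pair of values, 0.23 and 0.23, together with other genes, 465 in all. Such shared values show that the tables resolve no order among these 4 genes. The replicate spread of protein-coding genes up to 2 log2 units was 0.0109, against 0.22 from 8 to 10.

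Of the large subunit, 17 of 49 genes had a row (34.7%) and 7 were detected. Of the small subunit, 13 of 29 had a row (44.8%) and 5 were detected. Cryo-electron microscopy places MRPS18A and MRPS30 in the large subunit despite their names, and MRPS36 has been reassigned to a metabolic enzyme complex. None of these 3 had a row, and counting them so gave 17 of 51 (33.3%) for the large and 13 of 26 (50%) for the small subunit. On the deposited scale the median level was 3.06 log2 units for the large and 2.64 for the small subunit, a difference of 0.41. Per kb the difference was -0.17, with medians of 0.98 and 1.16, and among detected genes alone it was -2.96 on the deposited scale. The sign of the difference thus depends on the scale and the filter, and no order of the subunits is shown. Measured by summed linear value, small-subunit genes held 87.0% of the amount for all 30 genes in replicate 1 and 88.9% in replicate 2. MRPS22 and MRPS25 carry that order: the other 11 small-subunit genes held 5.41% and 4.59%, against a mean of 12.1% ± 1.34 (SD, n = 2) for the large subunit.

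**Figure D2:**
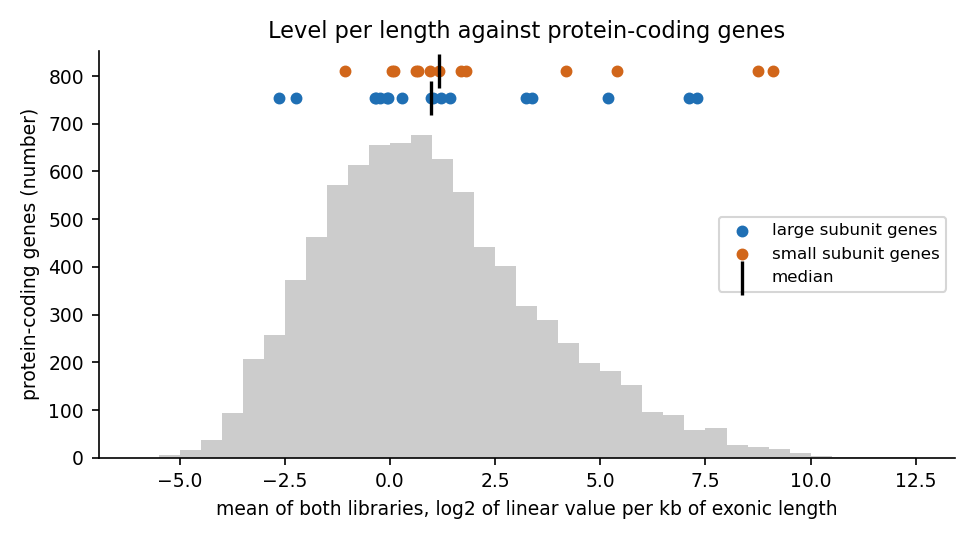
Mean level of both libraries per kb of exonic length (horizontal axis, log2) for 8431 protein-coding genes (grey, number per bin of the histogram) and, in the rows of points above, for the 17 large-subunit and 13 small-subunit genes with a row; their height has no meaning. Black ticks mark the medians, 0.98 for the large and 1.16 for the small subunit, and both sets spread over most of the grey range.

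By descent, 17 of 47 genes with a bacterial counterpart had a row (36.2%), and 13 of 31 without one (41.9%). Their median levels were 1.01 and 0.29 per kb, and 2.64 and 3.06 log2 units on the deposited scale, where the order is the opposite. Among small-subunit genes with no bacterial counterpart, 5 of 11 had a row and 3 were detected, MRPS22, MRPS25 and MRPS27. Among large-subunit genes of bacterial descent, 9 of 29 had a row and 4 were detected.

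Of the 78 genes 48 had no row, as did 11520 of 19951 protein-coding genes. Genes for central parts of the ribosome were found with and without a row. MRPL16 and MRPL22, whose bacterial counterparts lie near the catalytic centre and at the exit tunnel, had one. MRPL10, MRPL11 and MRPL12 of the stalk and its base, which recruit translation factors, had none, and neither had MRPL2 and MRPL3 near the catalytic centre. MRPS12 and MRPS5, of the decoding region and the messenger RNA entrance, had none. MRPL58, a peptidyl-tRNA hydrolase built into the ribosome, MRPL45, which contacts the inner membrane, and MRPL44, which resembles ribonuclease III, had none. The other large-subunit genes without a row were MRPL1, MRPL4, MRPL13, MRPL14, MRPL15, MRPL17, MRPL21, MRPL23, MRPL24, MRPL27, MRPL28, MRPL32, MRPL33, MRPL36, MRPL39, MRPL40, MRPL41, MRPL46, MRPL47, MRPL50, MRPL52, MRPL53, MRPL54 and MRPL55. Those of the MRPS series were MRPS6, MRPS9, MRPS11, MRPS17, MRPS18A, MRPS18B, MRPS23, MRPS24, MRPS28, MRPS30, MRPS31, MRPS33, MRPS35 and MRPS36. No source used here gives the reason why a gene has no row.

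Having a row went with lying opposite another gene. In the GENCODE 29 annotation, 29 of the 78 genes share at least 1 exonic base with a gene on the other strand, and 17 of these had a row (58.6%), against 61.5% of protein-coding genes with such an overlap. Of the 49 genes without one, 13 had a row (26.5%), against 32.5%. Detected genes numbered 9 of 29, against 36.2% of protein-coding genes with an overlap, and 3 of 49, against 9.33% of those without. In both classes the share lay close to that over all protein-coding genes. The median level per kb was 1.81 with an overlap and 0.29 without, against 1.61 and 0.01 for protein-coding genes. The contrast is thus not particular to these genes. The 3 detected genes with no exonic overlap were MRPL16, MRPL35 and MRPL42. The ends of MRPL16 and STX3, a syntaxin gene, face each other 252 bases apart, and those of MRPL35 and REEP1, a gene for an endoplasmic reticulum protein, 198 bases apart. Overlaps of the 3′ ends (tail to tail) were found for 12 genes, 7 with a row (58.3%, against 68.4%), overlaps of the 5′ ends (head to head) for 10, 6 with a row (60%, against 57.5%), and nested or other forms for 7, 4 with a row (57.1%, against 56.9%).

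**Figure D3:**
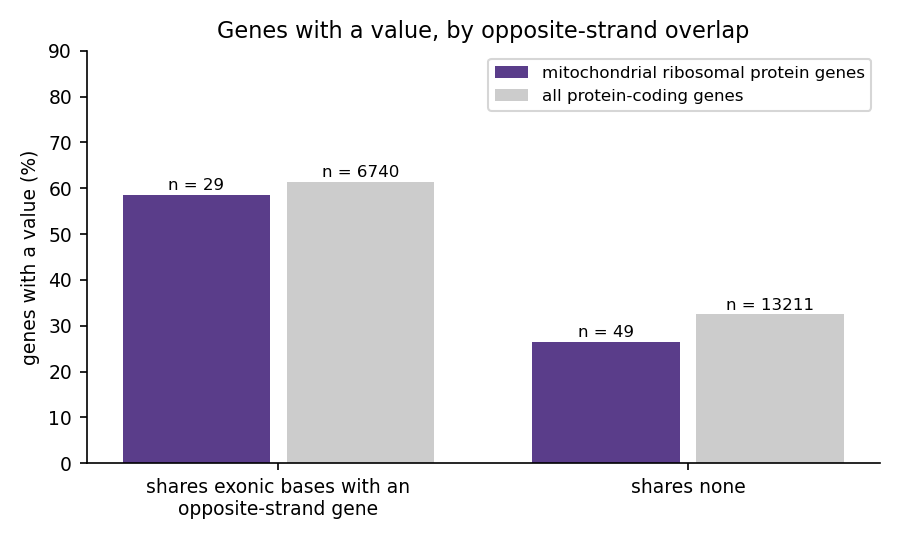
Share of genes with a row in both tables (vertical axis, percent) for the mitochondrial ribosomal protein genes (purple) and all protein-coding genes (grey), by whether the gene shares exonic bases with a gene on the other strand; n is the number of genes. The purple bars stand at 58.6% and 26.5%, and the grey bars at 61.5% and 32.5%.

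All 17 genes with a row and an overlap lay opposite a gene that also had a row, against 77.5% of such protein-coding genes, and each was compared with the one of longest overlap. The opposite gene was the higher in 11 of 17 pairs on the deposited scale (64.7%, against 63.0% of 3211 such protein-coding pairs) and in 9 of 17 per kb (52.9%, against 67.3%). The differences per kb, opposite gene minus ribosomal protein gene, ran from -6.77 to 9.21 log2 units with a median of 0.08. The pairs thus stretched far in both directions. Because overlapping genes could share reads where counting ignored strand, all of these values are uncertain for the overlapping bases.

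The 2 highest genes stood above their opposite genes. MRPS22 shares 86 exonic bases, from 139355682 to 139355767, with COPB2, which encodes a subunit of the COPI vesicle coat. All 86 bases are annotated as coding in transcripts of both genes. COPB2 had 7.50 and 7.51 log2 units, and per kb it lay below MRPS22 by 4.57 in replicate 1 and 4.71 in replicate 2. MRPS25 shares 1197 exonic bases with NR2C2, a nuclear receptor gene, of which 89 are coding in MRPS25. NR2C2 had 8.30 and 8.01, and lay below MRPS25 by 4.00 and 4.30 per kb. The widest gap in this direction was that of MRPL34 over ABHD8, a hydrolase gene with 1.67 and 1.68 log2 units, by 6.59 and 6.95 per kb. MRPS7 stood 3.29 log2 units per kb above GGA3, which encodes a Golgi sorting adaptor, and 1.18 below MIF4GD on its other side. MRPS27 lay 1.99 per kb above PTCD2, another gene for a mitochondrial RNA-binding protein.

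Other pairs were close. MRPL20 and MRPL20-AS1 had means of 3.23 and 3.31 log2 units per kb, and the sign of their difference changed between the libraries, 0.20 in replicate 1 and -0.05 in replicate 2. MRPS18C shares 1956 exonic bases with ABRAXAS1, a gene of a DNA repair complex, and stood above it by 0.69 and 0.25 per kb. MRPL51 stood 0.82 above NCAPD2, a condensin gene, and MRPL37 0.79 above SSBP3, a transcriptional cofactor gene.

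In the remaining 8 pairs, leaving MRPL20 aside, the opposite gene was the higher per kb in both libraries. MRPS2 had 0.23 log2 units in both libraries, and the antisense gene ENSG00000226706 had 8.14 and 8.45. Per kb that gene stood above MRPS2 by 9.06 and 9.35. For MRPL38 and the antisense gene ENSG00000267342 (8.01 and 7.90 log2 units) the gap per kb was 7.85 and 7.75. DNAJC9-AS1 (ENSG00000236756), opposite MRPS16, had 9.38 and 9.33, a mean gap of 6.49. MRPL9 lay below OAZ3, an antizyme gene known from the testis, by 5.89 and 6.13. MRPL49 lay below SYVN1, a ubiquitin ligase gene of the endoplasmic reticulum, by 5.50 and 5.91. MRPL19 lay 4.22 below GCFC2, MRPL43 3.52 below SEMA4G, and MRPS14 2.07 below CACYBP.

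**Figure D4:**
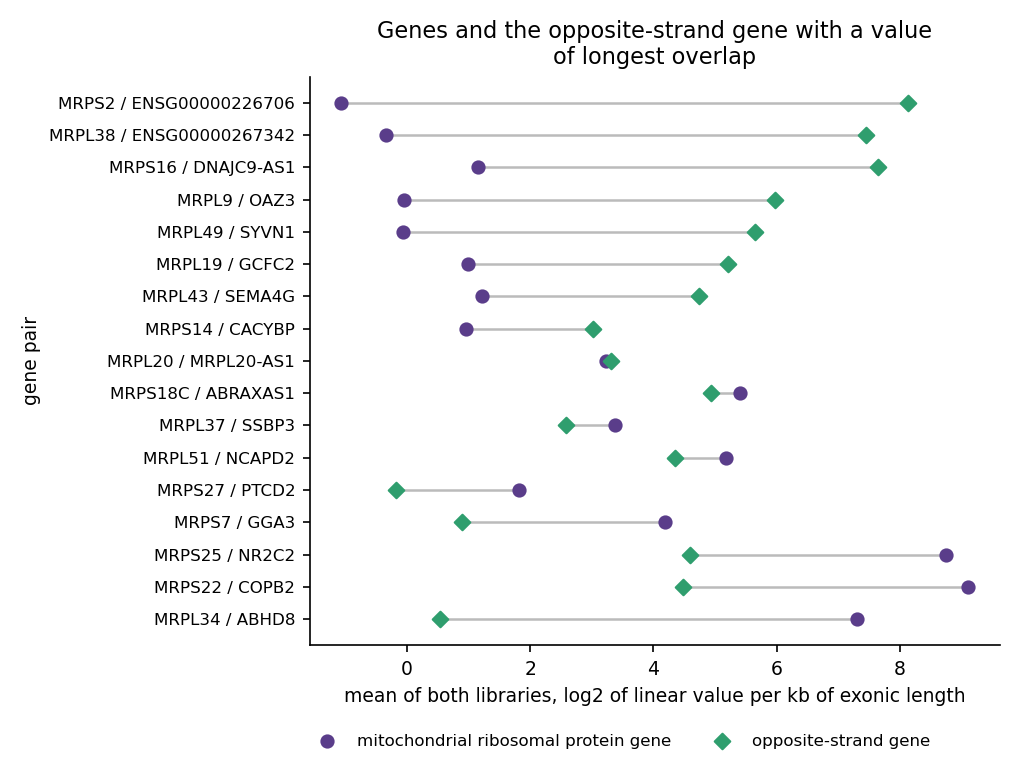
Mean level of both libraries per kb of exonic length (horizontal axis, log2) for 17 mitochondrial ribosomal protein genes (circles) and the opposite-strand gene with a row that shares the most exonic bases with each (diamonds), ordered by the difference. The circle lies to the right in 8 pairs, furthest for MRPL34, and to the left in 9, furthest for MRPS2.

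Among the 12 genes with an overlap and no row of their own, the opposite gene had a row for 8, against 55.6% of protein-coding genes in the same position. RSPH9, a radial spoke gene of cilia, had 8.79 and 9.02 log2 units opposite MRPS18A. ENSG00000279945 had 8.97 and 9.31 opposite MRPS11, LIMASI 8.19 and 8.47 opposite MRPL4, and MRPS9-AS1 7.85 and 7.99 opposite MRPS9, where all 170 shared bases are coding in MRPS9. KLC4, a kinesin light chain gene, had 6.61 and 6.58 opposite MRPL2, and ENSG00000228802 had 6.33 and 6.30 opposite MRPL44. PELI3, opposite MRPL11, had 4.00 and 4.12, and PSMA2, opposite MRPL32, had -0.23 and -0.24. For MRPL13, MRPL23, MRPL47 and MRPS12 neither gene had a row. Over all 39 opposite genes, 10 of 12 that do not encode proteins had a row, with a median of 8.26 log2 units per kb, and 21 of 27 protein-coding ones, with a median of 4.35. The same shares and medians over the opposite genes of all protein-coding genes were not computed. The contrast is therefore not shown to be particular to these genes.

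Some of these genes start close to a gene on the other strand. In 35 pairs, for 33 of the 78 genes, the 5′ ends overlapped head to head or lay within 1000 bases of each other. The share of all protein-coding genes with such a neighbour was not computed. MRPL46 and MRPS11 face each other and are counted from each side. Both genes had a row in 11 of the 35 pairs, against 29.7% of 5497 such pairs of protein-coding genes. The other gene was the higher per kb in 7 of the 11, against 60.9%. MRPL18 and TCP1, a chaperonin subunit gene, start 62 bases apart in the annotation, and the RefSeq start of TCP1 falls at position 41 of the MRPL18 window printed above. MRPL18 had 0.23 log2 units in both libraries and TCP1 had 10.85 and 10.72, a mean gap of 8.71 per kb. MRPS34, whose window holds 3 ETS-type motifs, had 0.23 in both libraries. EME2, a DNA repair endonuclease gene 51 bases away in the annotation, had 10.28 and 10.68, a mean gap of 7.59 per kb. Within the printed MRPS34 window no RefSeq start on the other strand was found. MRPL43 lay 3.52 per kb below TWNK, the helicase of mitochondrial DNA, which had 6.67 and 6.89. MRPL30 lay 3.39 below MITD1, 20 bases away. The direction was the opposite for MRPS7 and GGA3, MRPS27 and PTCD2, MRPL51 and NCAPD2, and MRPL49 and FAU. FAU encodes a cytosolic ribosomal protein fused to a ubiquitin-like protein, and had 0.23 in both libraries. In 11 pairs neither gene had a row, among them MRPL46 and MRPS11, which start 33 bases apart, MRPS12 and SARS2, MRPL36 and NDUFS6, and MRPL47 and NDUFB5.

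On the same strand, 16 of the 78 genes share exonic bases with another annotated gene, and 6 of these had a row. MRPL30 shares 564 with ENSG00000241962, another protein-coding gene, which had 6.22 and 6.25 log2 units against 2.57 and 2.53 for MRPL30, or means of 5.24 and 1.01 per kb. MRPL9 and MRPS16 also share bases with a same-strand gene that had a row. How reads in such shared bases were assigned is not known, and these 3 values are uncertain.

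Between the libraries, 6 of the 12 detected genes were higher in replicate 1 and 6 in replicate 2, where 58.0% of 3675 detected protein-coding genes were higher in replicate 1. The median difference, replicate 2 minus replicate 1, was 0.00 log2 units, against -0.03. None of the 12 differed 2-fold, against 0.245% of protein-coding genes, and no test stands behind these counts. MRPL16 had the largest difference, -0.74 or 1.66-fold, and 10 of the 520 protein-coding genes within 1 log2 unit of its level differed more. MRPL34 differed by 0.37, with 68 of 571 genes differing more, and MRPS18C by -0.31, with 114 of 645. MRPS25 differed by 0.01, with 76 of the 78 protein-coding genes near its level differing more. The 2 libraries describe themselves here and no condition.

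**Figure D5:**
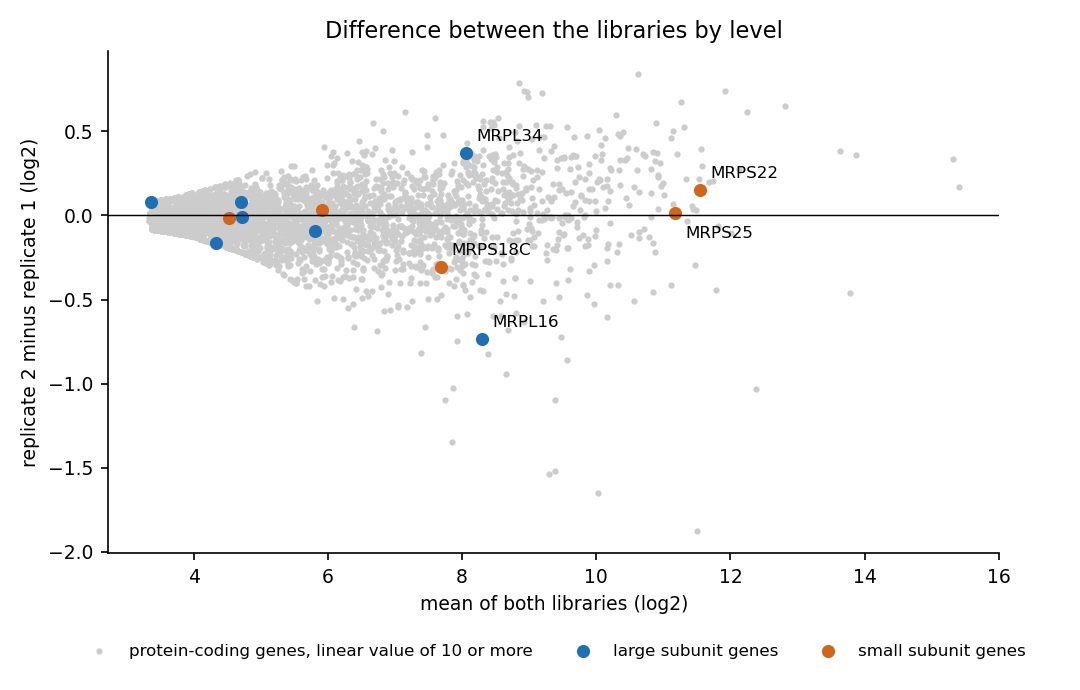
Difference between the libraries (vertical axis, replicate 2 minus replicate 1, log2) against their mean (horizontal axis, log2) for detected protein-coding genes (grey) and the 12 detected mitochondrial ribosomal protein genes (blue, large subunit; orange, small subunit). MRPL16 lies lowest of the 12 at -0.74 and MRPL34 highest at 0.37, and the grey cloud narrows towards low levels.

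Mitoribosomal proteins with other symbols also had values. GADD45GIP1, of the large subunit, had 10.42 and 10.21 log2 units, and DAP3, a GTP-binding protein of the small subunit, had 8.18 and 8.33. PTCD3 had 4.41 and 4.25, AURKAIP1 was below the detection limit, and CHCHD1 had no row. Per kb, GADD45GIP1 had 9.48, and DAP3 had 6.06 and its opposite gene YY1AP1 0.32. Of 26 factors that assemble the ribosome, 13 had a row (50%) and 7 were detected, with a median of 0.73 per kb. On the deposited scale the ribosome silencing factor MALSU1 led them at 8.66 and 8.70, followed by RCC1L at 5.90 and 5.86 and MPV17L2 at 4.47 and 4.62. Of 17 factors of mitochondrial translation and its messenger RNA, 13 had a row (76.5%) and 8 were detected, with a median of 2.69 per kb. MTRFR, a rescue factor for stalled ribosomes, had 7.81 and 7.89, SLIRP, which stabilises mitochondrial messenger RNA, 7.77 and 7.53, and the initiation factor MTIF3 7.28 and 7.25. The elongation factor gene TUFM, abundant in most cells, had -0.23 and -0.24.

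Of 19 synthetases that charge mitochondrial transfer RNA, 12 had a row (63.2%) and 5 were detected, with a median of 0.28 per kb. KARS1, which serves both cytosol and mitochondria, had 7.38 and 7.54, and EARS2 and TARS2 both had 3.57 and 3.48. Of 16 genes that copy, transcribe or process the mitochondrial genome and its RNA, 6 had a row (37.5%) and 5 were detected, with a median of 3.45 per kb. The polymerase gene POLG had 7.02 and 7.21, TWNK 6.67 and 6.89, and PRORP, the ribonuclease that trims transfer RNA, 5.96 and 6.31. The RNA polymerase gene POLRMT had 0.23 in both libraries, and TFAM had no row. Beside these, 38.5% of the mitochondrial ribosomal protein genes and 42.3% of protein-coding genes had a row, and no test of the differences among the lists was made.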

How the data were processed

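RNA of LAD2 vesicles was sequenced in 2 libraries of 1 group. For each gene the authors deposited a log2 value in each library: although the tables are called counts, values have decimals and 1029 genes of 14467 are negative in each library. Submitters' processing notes name FastQC 0.11.5, STAR 2.6.1a and hg38. Depth, transform, annotation, counter and counting strand were not given in the sources used here. Differences between the libraries narrow at low values, and no count model could be used.

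Identifiers were paired with symbols through a reference table. Gene models were those of GENCODE 29 (GRCh38, the same assembly as hg38), where 13733 identifiers had a model, and the other 734 were not searched as opposite-strand genes. Exonic length is the union of all annotated exons. An opposite-strand gene shares at least 1 exonic base. Per-library values are given for detected genes and their opposite genes, the lowest genes, and the 3 highest of each list, except that some items are not reported here. Other genes named were chosen after their values were seen. With 1 group, no p-value was computed, and percentages of protein-coding genes serve as background. The SD of a gap is the root of the mean of both genes' squared spreads, each the SD of library differences at that level over the root of 2. The limit of 2 SD was chosen after the values were seen. The genes and lists were chosen with earlier results of these data known. Overlap and median functions were tested on simulated data. Python 3.11.15, numpy 2.4.6, pandas 2.3.3 and matplotlib 3.10.9 were used.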

Additional observations from a re-analysis of the deposited data

How the results depend on the processing

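Of 50 recomputed values, 30 moved by no more than the spread between the libraries, or by at most 1.5 times for counts. Runs without replicate 1 or 2 are among these 30. They are no independent check, since the value of 1 library lies within a spread that it helps to set. The genes with a row were also the same in both libraries. The count of 30 is therefore no measure of how stable the results are. The cause of the other changes was not tested except where fewer genes or another scale are named. At a linear value of at least 50, 7 genes were detected. The difference between the subunits, large minus small, reversed from 0.41 to -2.96 log2 units with members limited to detected genes. With that filter the median became 5.86, the median per kb 4.68 and the subunit difference per kb -2.03. With 1 or 5 added to the linear value the median became 2.91 or 3.52 and the subunit difference 0.36 or 0.24. Placing MRPS18A and MRPS30 in the large subunit and leaving out MRPS36 moved the difference in the share with a row, large minus small, from -10.1 to -16.7 percentage points. Without the genes that have an opposite-strand overlap, 13 had a row, the median was 1.81, the subunit difference was 0.84, the difference in shares was -4.41 points and the share of linear value was 0.0214%. With the longest transcript as length, the median per kb was 1.25 and the subunit difference per kb -0.0814. Leaving out MRPS22 and MRPS25, an alternative chosen after seeing the data, gave a median of 2.595, a subunit difference of 0.72 and a share of 0.0605%. Without replicate 1 or 2 the median ranged from 2.69 to 2.71 and the share from 0.349% to 0.358%. Genes limited to overlaps of at least 100 exonic bases gave 10 of 15 pairs with the opposite gene higher. No paired analysis was possible because 1 group has nothing to pair with. The unknown depth limits what low values can show.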

Other observations

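Pseudogenes of these genes are common in the genome. Of 75 annotated pseudogenes from 34 parent genes, 5 had a row (6.67%). The share over all annotated pseudogenes was not computed, so whether this share is unusual cannot be told. MRPS21P9, on chromosome 17, had 3.34 and 3.38 log2 units, and MRPS21P5, on chromosome 10, had 1.94 and 1.91, while the parent MRPS21 had 1.35 and 1.33. Per kb these values were 5.32, 4.03 and 0.63. MRPL57P8 had 2.36 and 2.41, and the parent MRPL57 had -1.06 in both libraries, or means of 4.32 and -2.23 per kb. MRPL53P1 and MRPS18AP1, at means of 1.92 and 2.74, belong to the parents MRPL53 and MRPS18A, which had no row. How reads that fit both a pseudogene and its parent were counted is not known, and the values of both are uncertain.

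MRPL12 had no row, while ENSG00000262049, an antisense gene that starts 56 bases from it, had 9.49 log2 units in replicate 1 and 10.12 in replicate 2. MRPL27 had no row either, and EME1, a DNA repair endonuclease gene that starts 5 bases away, had 7.40 and 7.41. Both were chosen after their values were seen.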
